A study of Homo sapiens with 18 samples.

Results

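The complement factors and regulators examined here are 9 genes, C3, CFB, C1R, C1S, CFI, SERPING1, CD46, CD55 and CD59, of 35044 genes in the count table. They were chosen by gene symbol, matched to the table through the Ensembl identifier without its version, and all 9 passed the filter on low counts. HCC1937 is a human breast cancer cell line with mutated BRCA1. HCC1937-EV carries an empty vector, and in HCC1937-OE-BRCA1 wild-type BRCA1 is overexpressed. RNA-seq covered both cell lines at 0 h and after 12 h and 24 h with olaparib, an inhibitor of the DNA repair enzyme PARP1 (PARPi), as 18 libraries, 3 for each condition. By the titles, every library at 12 h and 24 h had olaparib. Olaparib and time in culture thus cannot be told apart in the changes from 0 h, which are called responses below. The study asked how the response to PARPi depends on BRCA1. Olaparib is entered in the labels even for samples at 0 h, and WT stands as the genotype of HCC1937-EV, so groups follow the titles and the design text. The cell lines are called EV cells and OE cells below, as in the titles. No source used here says whether the libraries came from separate cultures or whether HCC1937-OE-BRCA1 is 1 clone, so p-values measure the spread between libraries, which may be technical. Total counts per library lay between 15081973 and 17571922.

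Complement is a cascade of plasma proteins and receptors that marks surfaces for removal or lyses them. The classical pathway starts with the C1 complex, in which C1r activates C1s, and the alternative pathway amplifies the reaction through C3 and factor B. All pathways meet at the cleavage of C3. Host cells are protected by soluble inhibitors such as C1 inhibitor and factor I and by the membrane proteins CD46, CD55 and CD59. The liver makes most plasma complement, but epithelial and tumor cells also transcribe these genes, and several of them are known to respond to interferons and inflammatory cytokines.

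The labels were checked first. BRCA1 itself stood at 118 ± 7.70 CPM (read counts scaled to a common, TMM-normalized library size, mean ± SD, n = 3 here and throughout) in EV cells and 138 ± 24.0 CPM in OE cells at 0 h, a difference that did not pass edgeR's quasi-likelihood test (log2 fold change 0.24, adjusted p = 0.0654). At 12 h BRCA1 was not called either (1.12-fold, log2 fold change 0.16, adjusted p = 0.197), and at 24 h it was 1.71-fold higher in OE cells (adjusted p = 3.17e-06). Higher BRCA1 RNA in OE cells was thus called at 1 of the 3 times. Counts per gene do not tell transfected from endogenous BRCA1, so they do not measure the overexpression itself. Of 8 markers of a breast epithelial line, EPCAM, KRT5 and KRT14 did not exceed 0.124 CPM in any of the 9 EV libraries, and CDH1, which encodes E-cadherin, did not exceed 1.198 CPM. In OE cells these genes ranged over 252 to 352 CPM for EPCAM, 329 to 488 CPM for CDH1 and 21.0 to 48.9 CPM for KRT14. The keratin gene KRT17 stayed between 1.86 and 5.97 CPM in EV cells, whereas KRT8, KRT18 and EGFR were at or above 139 CPM in every library of both cell lines. The libraries labelled HCC1937-EV thus lacked defining epithelial markers, and 72.7% of the 18335 genes tested differed between the cell lines at 0 h (edgeR, Benjamini-Hochberg adjusted p under 0.05, which is what "called" means here). Whether both cell lines come from the same parental cells, as their names say, was not tested, and the descriptions of HCC1937 above come from the labels and the study, which also examined BRCA1 protein in both cell lines, data not analysed here. The study reports truncated BRCA1 protein in HCC1937-EV, and the truncated form together with the transfected wild-type protein in HCC1937-OE-BRCA1. BRCA1 status and every other difference between these cell lines, origin included, cannot be told apart in this design.

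Each of the 9 genes was called different between the cell lines at each of the 3 times, with 6 higher and 3 lower in OE cells, against a background of 72.7%, 72.9% and 73.9% of all genes called at 0 h, 12 h and 24 h. Of all genes, 39.4%, 38.8% and 39.9% were called higher and 33.3%, 34.1% and 34% lower at these times. The libraries of the cell lines did not overlap for any of the 9 genes at any time. C3, CFB, C1R, C1S, CFI and CD46 were higher in OE cells, and SERPING1, CD55 and CD59 were lower. The median log2 difference of the 9 genes was 1.03, 1.60 and 1.79 at the 3 times, beside 0.11, 0.08 and 0.12 over all genes tested, and taking CFB at its lower bound gave the same medians. The protein products were not measured here. In bulk RNA, fewer cells with a transcript and less of it per cell cannot be told apart.

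**Figure D1:**
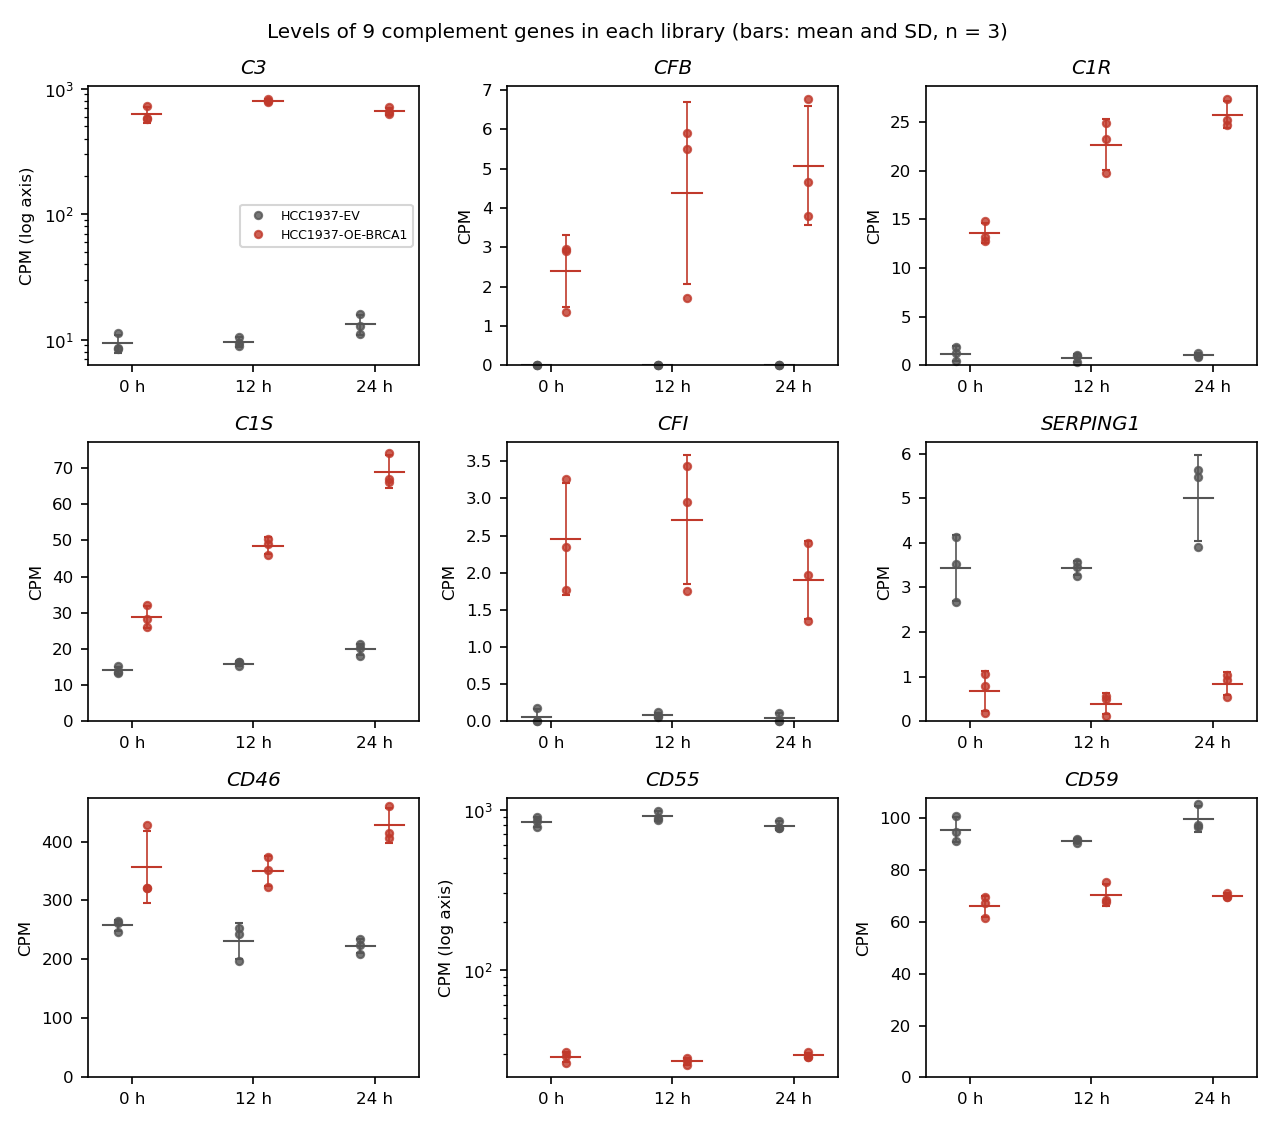
Level in CPM (C3 and CD55 on log axes, the others on linear axes from 0) of each of the 9 genes in every library, by hours with olaparib, for EV cells (grey) and OE cells (red). Points are libraries and bars are the mean and SD of 3 libraries. The cell lines are apart for every gene, while in OE cells C1S climbs over the 3 times and C1R is higher at 24 h than at 0 h.

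C3 (ENSG00000125730, chromosome 19, 6677704 to 6730562, minus strand, GRCh38), the component on which all pathways converge, showed the greatest difference in level that could be given as a fold. In EV cells it stood at 8.63, 11.2 and 8.39 CPM in the 3 libraries at 0 h, 8.97, 10.6 and 9.37 CPM at 12 h, and 11.2, 12.8 and 15.9 CPM at 24 h. In OE cells the values were 569, 580 and 727 CPM at 0 h, then 833, 790 and 792 at 12 h and 654, 627 and 712 at 24 h. Every OE library was thus far above every EV library, and the third library at 0 h was the highest of its group. C3 was 66.5-fold higher in OE cells at 0 h, 83.5-fold at 12 h and 50.03-fold at 24 h (log2 fold change 6.05 with a 95% confidence interval of 5.74 to 6.37 at 0 h, edgeR adjusted p = 2.49e-18).

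CFB (ENSG00000243649, chromosome 6, 31945650 to 31952084, plus strand), which encodes factor B, the protease of the alternative pathway C3 convertase, had no count in any of the 9 EV libraries. A count of 0 over the 3 libraries at 0 h allows up to 0.0619 CPM (3 counts, counting error only). In OE cells it reached 2.89, 1.36 and 2.96 CPM at 0 h, then 5.91, 5.50 and 1.72 at 12 h and 6.76, 4.67 and 3.80 at 24 h. The level was low but present in all 9 libraries, and the third library at 12 h stood apart from the other two. Against the floor of 3 counts over the group, CFB was at least 38.8-fold higher in OE cells at 0 h, 68.0-fold at 12 h and 85.6-fold at 24 h. In the annotation (GENCODE release 29), 45.5% of the exonic bases of CFB are shared with overlapping genes, chiefly a readthrough gene with C2, so its count depends on how such reads were assigned. C2 itself was at or below 0.125 CPM in every condition.

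The proteases of the C1 complex lie near each other on chromosome 12 and were both higher in OE cells. C1R (ENSG00000159403, 7080199 to 7092607, minus strand) stood at 0.435, 1.30 and 1.91 CPM in EV cells at 0 h and at 12.8, 13.2 and 14.8 CPM in OE cells. It was 11.1-fold higher there at 0 h, 28.1-fold at 12 h and 24.4-fold at 24 h (adjusted p = 3.92e-10, 4.62e-12 and 3.67e-12). C1S (ENSG00000182326, 6988259 to 7071032, plus strand) differed less between the cell lines. Its values at 0 h were 13.7, 15.3 and 13.4 CPM in EV cells and 26.1, 32.2 and 28.2 CPM in OE cells. The difference was 2.04-fold at 0 h, 3.03-fold at 12 h and 3.47-fold at 24 h (adjusted p = 4.01e-08, 3.02e-11 and 3.57e-12). Of the exonic bases, 11.4% of C1R are shared with C1RL and 3.54% of C1S with EMG1, which stood between 85.3 and 124 CPM, so a part of the C1S reads may be uncertain.

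SERPING1 (ENSG00000149131, chromosome 11, 57597387 to 57614853, plus strand) encodes C1 inhibitor, which inactivates C1r and C1s, and it went in the opposite direction. EV libraries held 2.67, 4.14 and 3.52 CPM at 0 h and 3.90, 5.48 and 5.63 CPM at 24 h. OE libraries held 0.185, 0.801 and 1.07 CPM at 0 h and 1.04, 0.921 and 0.552 CPM at 24 h. All of its values were low, and all OE values were below all EV values. SERPING1 was 4.99-fold, 8.53-fold and 5.92-fold lower in OE cells at 0 h, 12 h and 24 h (adjusted p = 1.84e-05, 1.52e-06 and 2.29e-06).

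CFI (ENSG00000205403, chromosome 4, 109740694 to 109802179, minus strand) encodes factor I, the protease that degrades C3b and C4b with the help of cofactors such as CD46. It was all but absent from EV cells, with 3, 4 and 2 counts summed over the 3 libraries at 0 h, 12 h and 24 h, against 119, 130 and 93 counts in OE cells. The ratio of the summed counts, scaled to library size, was 39.8 at 0 h (95% exact counting interval 13.3 to 196), 31.3 at 12 h (11.9 to 116) and 48.1 at 24 h (13 to 403). These intervals cover counting error only. The EV libraries held 3, 0 and 0 counts at 0 h and 0, 0 and 2 at 24 h. The ratios at 0 h and 24 h thus rest on the library that holds the counts. The mean level in OE cells was 2.46 ± 0.758 CPM at 0 h. An overlapping gene shares 32.0% of the exonic bases of CFI.

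Among the membrane regulators, the largest difference was that of CD55 (ENSG00000196352, chromosome 1, 207321376 to 207386804, plus strand), which speeds the decay of the C3 convertases. Its values in EV cells were 903, 776 and 845 CPM at 0 h, then 985, 889 and 867 at 12 h and 853, 769 and 767 at 24 h. In OE cells they were 30.7, 28.96 and 26.3 CPM at 0 h, then 28.2, 26.9 and 25.6 at 12 h and 28.6, 28.7 and 30.5 at 24 h. The spread within each group was small beside the gap between the cell lines. CD55 was 29.4-fold, 34.0-fold and 27.2-fold lower in OE cells (log2 fold change -4.88 with a 95% confidence interval of -5.09 to -4.66 at 0 h, adjusted p = 2.6e-19).

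CD46 (ENSG00000117335, chromosome 1, 207752057 to 207795513, plus strand), the membrane cofactor for factor I, was higher in OE cells, and CD59 (ENSG00000085063, chromosome 11, 33703010 to 33736491, minus strand), which blocks the membrane attack complex, was lower. CD46 stood at 262, 247 and 265 CPM in EV cells and at 427, 321 and 322 CPM in OE cells at 0 h, where the first library of the latter stood above the other two. The difference was 1.38-fold at 0 h, 1.51-fold at 12 h and 1.92-fold at 24 h (adjusted p = 0.000937, 8.59e-05 and 2.44e-07). CD59 stood at 94.5, 91.1 and 101 CPM in EV cells and at 67.1, 69.4 and 61.5 CPM in OE cells at 0 h. It was 1.45-fold, 1.30-fold and 1.42-fold lower in OE cells (adjusted p = 8.96e-06, 0.000452 and 1.45e-05). These were the smallest differences of the 9 genes at 0 h.

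**Figure D2:**
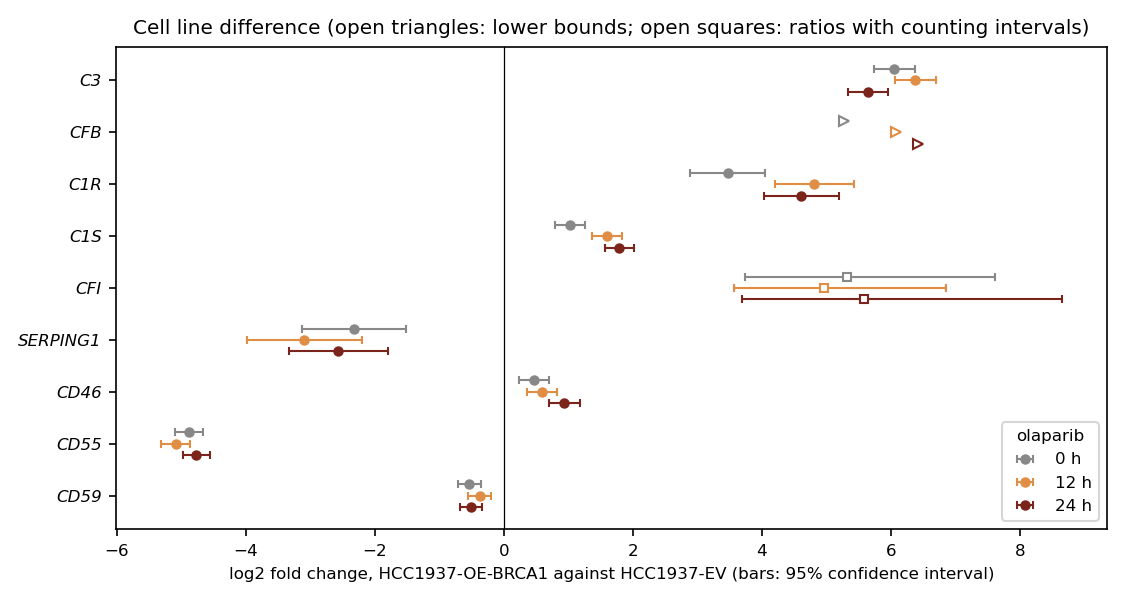
Log2 fold change of OE cells against EV cells for each gene at 0 h, 12 h and 24 h. Filled circles are edgeR estimates with 95% confidence intervals, open squares are count ratios of CFI with 95% counting intervals, and open triangles are lower bounds for CFB. C3, CFB, C1R, C1S, CFI and CD46 lie right of 0, and SERPING1, CD55 and CD59 lie left of it.

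The order of the levels therefore differed between the cell lines. Counted per kb of exon, so that genes can be compared with each other, CD55 led in EV cells at 0 h with 142 ± 10.7 CPM per kb, ahead of CD46 (29.6 ± 1.12), CD59 (9.21 ± 0.468) and C1S (2.18 ± 0.157). C3 (1.13 ± 0.186 CPM per kb) and SERPING1 (0.956 ± 0.205) followed with overlapping libraries, and C1R came next with 0.206 ± 0.126. CFI and CFB were last and overlapped at or near 0. In OE cells at 0 h, C3 led with 75.1 ± 10.6 CPM per kb, ahead of CD46 (41.0 ± 7.02) and CD59 (6.37 ± 0.392). CD55 (4.85 ± 0.370 CPM per kb) and C1S (4.46 ± 0.476) could not be separated by their libraries, and C1R was at 2.31 ± 0.180. CFI, CFB and SERPING1 were last, each overlapping with its neighbour. By 24 h, C1S had moved ahead of CD59 and CD55 in OE cells, at 10.7 ± 0.688 CPM per kb with no overlap.

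**Figure D3:**
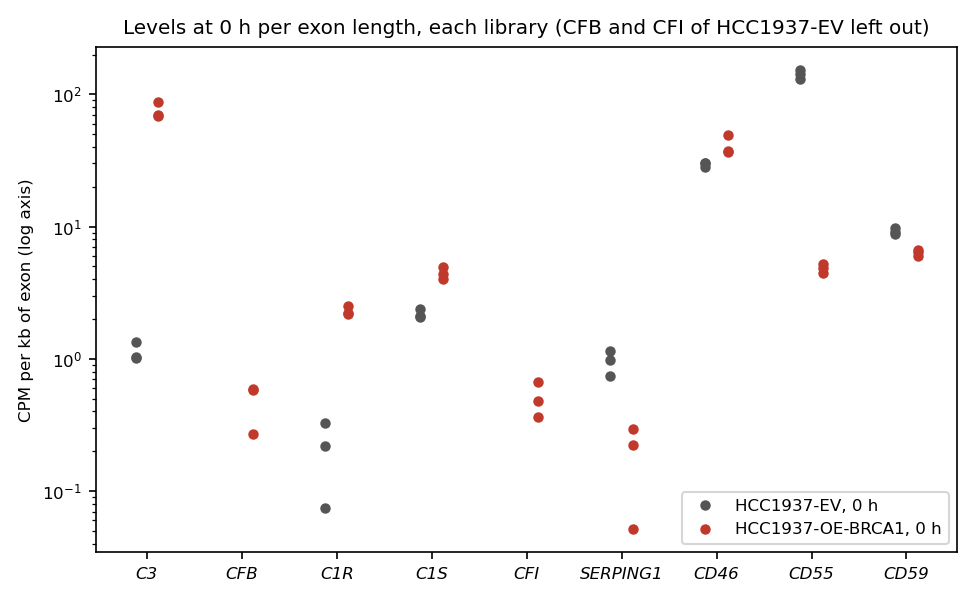
Level per exon length (CPM per kb, log axis) of each gene at 0 h in each library of EV cells (grey) and OE cells (red). CFB and CFI of EV cells, which hold libraries without a count, are left out. CD55 is the highest gene in EV cells and C3 the highest in OE cells.

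Changes from 0 h to the later times with olaparib were far fewer than differences between the cell lines. Without untreated libraries at 12 h and 24 h, these changes may reflect olaparib, time in culture or both. In OE cells, C1S was called higher at 12 h, 1 of 9 genes against a background of 2.31% called and 1.7% called higher, and C1S and C1R were called higher at 24 h, 2 of 9 against 8.26% called and 4.71% called higher. In EV cells none was called at 12 h, with 0 at an unadjusted p under 0.05 (2963 of all 18335 genes) and 0 by DESeq2. The background there was 8 genes or 0.0436% with edgeR, 276 genes with DESeq2 and 818 of 35044 without a filter on low counts. At 24 h in EV cells C1S and C3 were called higher, 2 of 9 against 13.7% called and 8.62% called higher. None of the 9 was called lower in these 4 comparisons, except CD46 in EV cells at 24 h when the compared conditions were fitted alone. The median log2 change of the 9 genes at 24 h was 0.26 in OE cells, beside 0.02 over all genes tested, and in EV cells it was 0.00 (-0.01 without CFB, which had no count there), beside 0.00 over all genes. The background itself depended on single libraries. Of all genes, 2520 were called at 24 h in EV cells, but 462 to 1549 without any one of the 3 libraries at 0 h or of the first and second at 24 h. In OE cells 1515 were called at 24 h, 3329 without the first library at 0 h, 644 to 916 without any one of the others, and 3193 of 18076 with an offset for GC content and exonic length, where C1S and C1R were still 2 of 9 called. In EV cells at 12 h, 462 were called without the first library at 12 h and 1 or 2 without any one of the others.

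C1S had the clearest time course. In OE cells it went from 26.1, 32.2 and 28.2 CPM at 0 h to 50.5, 46.0 and 49.1 CPM at 12 h and 66.0, 74.1 and 66.95 CPM at 24 h. The libraries of the 3 times did not overlap. C1S rose by 0.75 on the log2 scale at 12 h (SE 0.106, adjusted p = 0.000169) and by 1.26 at 24 h (95% confidence interval 1.04 to 1.48, adjusted p = 1.28e-07), which is 2.40-fold. The further rise from 12 h to 24 h was called too (log2 fold change 0.51, adjusted p = 0.0146; 1 of 9 genes, background 1.65% called and 0.791% called higher), but not once any of 5 of the 6 libraries was left out, which gave 0.46 to 0.54. In EV cells the values went from 13.7, 15.3 and 13.4 CPM at 0 h to 16.3, 15.3 and 16.3 CPM at 12 h and 18.2, 20.2 and 21.3 CPM at 24 h. There C1S rose by 0.50 at 24 h (95% confidence interval 0.27 to 0.73, adjusted p = 0.00901), a call lost without the first (0.47) or the third (0.44) library at 0 h. The rise at 24 h was greater in OE cells by 0.76 on the log2 scale (95% confidence interval 0.44 to 1.08, adjusted p = 0.00282), and C1S was 1 of the 2 members called for this difference, 2 of 9 against a background of 19.4% called and 8.16% called higher. Between 12 h and 24 h in EV cells none of the 9 was called by edgeR or DESeq2 (background 33 genes or 0.18% with edgeR, 156 genes with DESeq2 and 139 without a filter on low counts), with 3 at an unadjusted p under 0.05, beside 1686 of all 18335 genes. At 12 h none of the 9 differences in response was called by edgeR (background 0.518%), with 2 at an unadjusted p under 0.05 and 2 called by DESeq2. Of all 18335 genes, 2690 had an unadjusted p under 0.05 for it and 357 were called by DESeq2. By edgeR 95 were called, 772 without the first OE library at 0 h and 49 to 174 without any one of the others.

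C1R, the partner of C1S in the C1 complex, went from 12.8, 13.2 and 14.8 CPM at 0 h to 24.9, 23.2 and 19.8 CPM at 12 h and 24.7, 27.3 and 25.2 CPM at 24 h in OE cells. It rose 1.89-fold at 24 h (log2 fold change 0.92, 95% confidence interval 0.48 to 1.36, adjusted p = 0.00922). At 12 h the libraries did not overlap with those at 0 h, but the log2 fold change of 0.73 had an adjusted p of 0.0800, and it passed with DESeq2 (adjusted p = 0.00136) and under 3 other alternatives. In EV cells, C1R stayed near 1 CPM, with a log2 fold change at 24 h of -0.21 (95% confidence interval -0.98 to 0.55). The difference between these responses was 1.13 at 24 h (95% confidence interval 0.25 to 2.02) with an adjusted p of 0.0657, and it was called with DESeq2 (adjusted p = 0.0101), without a filter on low counts (0.0254), with an offset for GC content and exonic length (0.0438) and without the first EV library at 0 h (0.0112).

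C3 behaved otherwise. In EV cells it rose from 9.40 ± 1.55 to 13.3 ± 2.40 CPM at 24 h (log2 fold change 0.50, 95% confidence interval 0.20 to 0.79, adjusted p = 0.0271), although the lowest library at 24 h lay just below the highest at 0 h. Leaving out the first or the third library at 0 h, or the second or the third at 24 h, ended this call, with log2 fold changes between 0.34 and 0.52. In OE cells the log2 fold change was 0.36 at 12 h (adjusted p = 0.143), with libraries that did not overlap, and 0.09 at 24 h (95% confidence interval -0.16 to 0.33, adjusted p = 0.716). The change at 12 h was called with an offset for GC content and exonic length (0.26, adjusted p = 0.0496) and without the third library at 0 h (0.49, adjusted p = 0.0366). The difference of the responses at 24 h was -0.41 (adjusted p = 0.125), and with the offset it was called (-0.395, adjusted p = 0.0441).

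In OE cells the log2 change of CFB after 12 h was 0.87 with an adjusted p of 0.446. At 24 h it was 1.08 (95% confidence interval 0.19 to 1.97, adjusted p = 0.126). Neither was called, and without a filter on low counts the change at 24 h was (log2 fold change 1.03, adjusted p = 0.0114). With no count in EV cells, no response there could be measured. CFI had a log2 fold change of -0.37 at 24 h in OE cells with a wide interval of -1.19 to 0.45. SERPING1 had 0.54 at 24 h in EV cells (95% confidence interval -0.11 to 1.18, adjusted p = 0.249) and 0.29 in OE cells (-0.67 to 1.25). The intervals of these genes were wide, and whether a moderate change could be detected at such counts was not tested.

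The membrane regulators held narrow intervals. For CD59 the log2 change at 24 h was 0.06 in EV cells (95% confidence interval -0.11 to 0.24) and 0.09 in OE cells (-0.09 to 0.26). For CD55 it was -0.08 in EV cells (-0.26 to 0.10) and 0.03 in OE cells (-0.17 to 0.23), a value whose sign turned under other settings. CD46 went from 262, 247 and 265 to 225, 210 and 234 CPM in EV cells and from 427, 321 and 322 to 406, 415 and 461 CPM in OE cells between 0 h and 24 h. Neither change was called (log2 fold change -0.21, adjusted p = 0.22, and 0.26, adjusted p = 0.165), but their difference of 0.47 was (95% confidence interval 0.14 to 0.80, adjusted p = 0.045). With the compared conditions alone, the fall in EV cells was called (-0.21, adjusted p = 0.0337). The call of the difference was lost in 10 of the 12 fits that left out 1 library, with a replicate block (0.47, adjusted p = 0.0516) and without a filter on low counts (0.41, adjusted p = 0.0733), and with an offset for GC content and exonic length the difference was -0.07 (adjusted p = 0.701). CD46 has the lowest exonic GC content of the 9 genes, 37.8%. Without the first OE library at 0 h, where CD46 was highest, the change in OE cells was called (0.41, adjusted p = 0.011). In that library the rank correlation across genes between the deviation from the group mean and GC content was -0.70, against 0.33 and 0.60 in the other libraries of that group.

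**Figure D4:**
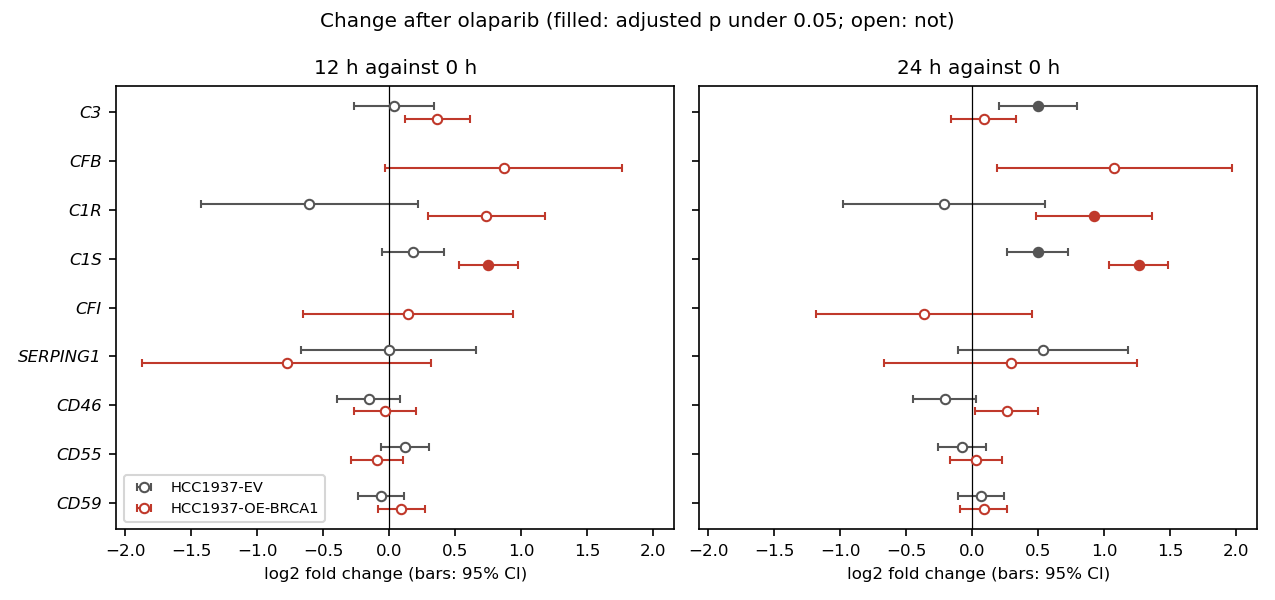
Log2 fold change after 12 h (left) and 24 h (right) with olaparib against 0 h in EV cells (grey) and OE cells (red), with 95% confidence intervals from edgeR. Filled points passed an adjusted p of 0.05, and CFB and CFI are shown for OE cells alone. Filled points are those of C1S in OE cells at both times, C1R in OE cells at 24 h, and C1S and C3 in EV cells at 24 h.

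Promoter sequence was available for 6 of the 9 genes, CFB, C1R, CFI, CD46, CD55 and CD59, in 11 entries of 250 bases before to 50 after a transcription start (RefSeq, GRCh38.p14). These were searched on both strands for GAAA, any 2 bases and GAAA, the core of the interferon-stimulated response element (ISRE), for TTCNNNGAA, the GAS core bound by STAT factors, and for the NF-kB consensus. Over all 35116 promoters of the table, 3.57% hold the first, 7.66% the second and 11.3% the third. The CFB promoter held all 3, 1 of the 2 entries of C1R and 2 of the 4 of CD59 held the GAS core (a single site that both of these CD59 entries cover), and no match was found in the entries of CFI, CD46 and CD55. The stretches that hold these matches are shown because they are the members' own copies of the 3 elements searched, with the matched letters in capitals, 5′ to 3′ on the strand of the gene. The starts are those of RefSeq, and for these 3 genes they lie inside the gene bounds given above. The first CFB stretch (chr6:31945945-31945974, plus strand) begins 150 bases before the start and holds the ISRE core, read on the other strand, and the second (chr6:31945983-31946011) holds the NF-kB match and then the GAS core, which begins 92 bases before the start. The C1R stretch (chr12:7091960-7091989, minus strand) has its GAS core 86 bases upstream of the start, and the CD59 stretch (chr11:33736588-33736617, minus strand) holds its GAS core 128 bases upstream.
CFB, ISRE core: acttctgcagTTTCTGTTTCcttgactggc
CFB, NF-kB and GAS core: GGGGCCCTCCcgcttggatgTTCCGGGAA
C1R, GAS core: gccagtcctaTTCCTGGAAggggaggggag
CD59, GAS core: ccacccggccTTCTCAGAAcctgggccagg
A match of letters is a description and not a bound site.

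Genes of interferon and inflammatory signalling, among them factors that bind ISRE, GAS and NF-kB elements, are given beside the complement genes as levels. STAT2 went from 66.7 ± 3.45 to 168 ± 1.96 and 162 ± 7.26 CPM in OE cells and stayed between 38.7 and 41.8 CPM on average in EV cells. IRF1, an interferon-induced factor, went from 42.2 ± 1.99 to 66.4 ± 3.95 and 77.1 ± 4.01 CPM in OE cells and was between 8.32 and 9.74 CPM in EV cells. STAT2 and IRF1 were called higher at 12 h and at 24 h in OE cells (log2 fold change at 24 h 1.28 and 0.87, edgeR adjusted p = 2.77e-09 and 7.38e-06), and in EV cells neither was. Their rises at 24 h were greater in OE cells by 1.17 and 0.67 (adjusted p = 1.13e-05 and 0.00533). IRF3, which acts downstream of nucleic acid sensors, was 162 ± 40.3 CPM in OE cells and 75.8 ± 3.17 CPM in EV cells at 0 h (log2 fold change 1.10, adjusted p = 4.8e-06), and 131 ± 4.92 and 107 ± 6.29 CPM at 24 h (0.29, adjusted p = 0.114). It was called higher at 24 h in EV cells (log2 fold change 0.50, adjusted p = 0.0488) and not in OE cells (-0.31, adjusted p = 0.261), and its response was lower in OE cells (-0.81, adjusted p = 0.0196). The OE libraries at 0 h held 116, 183 and 188 CPM of IRF3, the first well below the others. Calls of the regulators were not examined under the alternative settings. IL6 had 1 count in all 9 EV libraries and rose from 1.82 ± 0.585 to 4.71 ± 0.796 CPM at 24 h in OE cells (adjusted p = 0.0111). NFKB1 and RELA, which encode NF-kB subunits, were not called at 24 h in OE cells (log2 fold change -0.09 and 0.05, edgeR adjusted p = 0.573 and 0.808). Nor were they in EV cells (-0.19 and 0.04, adjusted p = 0.151 and 0.846). IRF9 and SOCS3 were not called at 24 h in either cell line. Of the 11 regulators listed, 5 were called higher and 0 lower at 24 h in OE cells, and 3 higher and 0 lower in EV cells, beside 4.71% and 8.62% of all genes called higher in these comparisons. Their part in the levels of the complement genes was not tested.

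Likeness of time course was described with Pearson's r over the 18 libraries, after the mean of each cell line was subtracted, among genes of at least 10 CPM in both lines. The libraries share depth and composition effects, so r is a description only. The genes most like C1S were APOL2 (r = 0.96), LGMN (0.92) and BTN3A2 (0.91), and those most like C3 were RAB3D (0.87), RNF123 (0.87) and KREMEN1 (0.86). For C1R they included CUTALP (0.80) and RNF168 (0.72), and for CD59 MAX (0.75), CPT2 (0.74) and SAT1 (0.71). CD55 was most like MTIF3 (0.91), GLMN (0.89) and PFDN4 (0.86). CD46 was most like HEATR5A (0.97), FZD6 (0.97) and STAG2 (0.96), and 895 of 8443 genes had an r above 0.8 with it, against 50 with C1S and 15 with C3. With a minimum of 1 CPM in place of 10, only 1 of the 3 genes stayed the same for C1R and for C1S. Among the 9 genes themselves, over the 9 libraries of OE cells, C1R and C1S had an r of 0.94 and C1R and CFB of 0.72. Over those of EV cells, C1R and C1S had an r of -0.02, and C3 had an r of 0.91 with SERPING1 and 0.87 with C1S.

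Of 50 other complement genes listed, 35 were in the table and 21 had enough counts to be tested. Between the cell lines 19, 19 and 20 of the 21 were called at 0 h, 12 h and 24 h against 72.7%, 72.9% and 73.9% of all genes, with 10 higher and 9 lower in OE cells at 0 h. SUSD4 and ITGAM were among the largest rises at 0 h. SUSD4, a membrane inhibitor of complement, had no count in EV cells and stood at 49.7 ± 2.03 CPM in OE cells, at least 803-fold higher. ITGAM, a chain of complement receptor 3, stood at 5.69 ± 0.678 CPM in OE cells and had 0, 4 and 7 counts in the 3 EV libraries. The largest falls were those of C4BPB, CFD and VTN. C4BPB, a chain of the C4b-binding protein, stood at 287 ± 9.61 CPM in EV cells and had 2 counts in OE cells. CFD, which encodes factor D, the protease that cleaves factor B, stood at 20.1 ± 4.28 CPM in EV cells and had 1, 2 and 12 counts in the 3 OE libraries, so that no fold is given because the third library decides it. VTN, which encodes vitronectin, an inhibitor of the membrane attack complex, was 24.6-fold lower. These 5 genes were among the largest rises and falls at 12 h and at 24 h too. At 0 h, C1QBP was 1.98-fold and the inhibitor clusterin (CLU) 4.02-fold lower in OE cells, and the terminal component C5 was 16.0-fold higher, which are additions made after their values were seen. C4A and C4B are near-identical copies, and their reads cannot be assigned with certainty.

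With olaparib, 0 of these 21 genes were called at 12 h in either cell line against a background of 0.0436% in EV cells and 2.31% in OE cells. At an unadjusted edgeR p under 0.05 there were 2 of the 21 in EV cells and 3 in OE cells, beside 2963 and 2137 of all 18335 genes. At 24 h, 2 were called in each, against a background of 13.7% called in EV cells and 8.26% in OE cells. A share of 2 in 21 is near or below these. In EV cells, CLU rose from 298 ± 7.47 to 383 ± 19.3 CPM (log2 fold change 0.36, adjusted p = 0.0396) and VTN from 5.26 ± 1.04 to 11.2 ± 1.99 CPM (1.09, adjusted p = 0.0143). In OE cells, C5 rose from 10.4 ± 2.41 to 17.1 ± 1.52 CPM (0.72, adjusted p = 0.0222), and C5AR1, the receptor of the fragment C5a, from 5.37 ± 0.565 to 8.57 ± 0.592 CPM (0.67, adjusted p = 0.00823). The response of CLU at 24 h was lower in OE cells than in EV cells by 0.54 (adjusted p = 0.0244), and it was 1 of 21 called for this difference, against 19.4% of all genes. Their medians at 24 h were 0.36 in EV cells, with genes without a count in a group at their bound or left out, and -0.01 in OE cells, beside 0.00 and 0.02 over all genes.

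Markers of other cell types that produce complement were at low or uneven levels. Of the macrophage list of 6 genes, 5 were in the table, and their summed level was 6.20 to 10.9 CPM in the EV libraries, mostly CSF1R, and 34.7 to 87.4 CPM in the OE libraries, mostly CD14. CD14, a receptor also made by epithelial cells, rose from 40.6 ± 8.39 to 77.7 ± 4.97 CPM at 12 h in OE cells (log2 fold change 0.94, edgeR adjusted p = 0.000612) and did not exceed 0.745 CPM in EV cells. CD68 and LYZ did not exceed 0.368 CPM in any library, and PTPRC, which encodes the leukocyte antigen CD45, was at 0 in EV cells and between 0.431 and 2.22 CPM in OE cells. The fibroblast list of 5 genes summed to 97.1 to 153 CPM in the EV libraries and 6.28 to 11.9 CPM in the OE libraries, mostly COL1A1, and PDGFRB reached a mean of 10.5 CPM in EV cells at 24 h, while DCN, LUM and COL1A2 did not exceed 0.373 CPM in any library. Of the hepatocyte list of 5 genes, 3 were in the table, and they summed to between 0.621 and 4.35 CPM. The endothelial list of 3 genes summed to 1.11 to 2.89 CPM in the EV libraries and 17.3 to 27.0 CPM in the OE libraries, led by PECAM1, which rose from 10.5 ± 0.711 to 19.8 ± 1.06 CPM at 24 h in OE cells (log2 fold change 0.92, adjusted p = 0.00968). The other endothelial genes had negative log2 changes that were not called (CDH5 -0.64, adjusted p = 0.0945, and VWF -0.24, adjusted p = 0.846). Of 18 markers of all lists tested, 6 were called at 24 h in OE cells, beside 8.26% of all genes. CD14 and PECAM1 rose, in the same libraries as C1S and C1R, and the epithelial genes CDH1 (-0.35, adjusted p = 0.0493), KRT5 (-0.47, adjusted p = 0.0175), KRT8 (-0.50, adjusted p = 0.00705) and KRT18 (-0.56, adjusted p = 0.00466) fell. The other epithelial markers were not called, KRT17 with a log2 change of -0.42, KRT14 with 0.54, EPCAM with 0.11 and EGFR with 0.03 (adjusted p = 0.0771, 0.0944, 0.613 and 0.944). In EV cells at 24 h, where C3 and C1S rose, 1 of the 18 was called, the fibroblast gene COL1A1 (0.435, adjusted p = 0.0408), beside 13.7% of all genes. The part of these markers in the results was not tested.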

How the data were processed

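RNA-seq of 18 libraries (2 cell lines, 3 times, 3 libraries each) was analysed from the read counts per gene, whole numbers without normalization, that the authors deposited. The submitters' processing notes name HISAT2, featureCounts, DESeq2 and GRCh38. Their roles, versions, the annotation and the strandedness are not given in the sources used here. RNA was extracted with TRIzol and libraries were made with the NEBNext Ultra II kit. The 18 tables of single libraries were checked to equal the joint table, which holds 35044 genes with a total count of at least 2. Pairs of replicates differed by 3.07 to 37.7 times the sampling noise (chi-square per degree of freedom), so each library counted once.

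From these counts, edgeR 4.0.16 (R 4.3.3) was run with TMM, filterByExpr by condition (18335 genes left) and the quasi-likelihood test on one mean per condition. The threshold for a call was 0.05 after Benjamini-Hochberg adjustment. The biological coefficient of variation was 12.9%. With 3 libraries against 3, an exact permutation test cannot give a p below 0.1, so none is given for single genes. Confidence intervals used the degrees of freedom of the fit. Zero counts were given an upper limit of 3 counts, for counting error only.

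Identifiers matched symbols in 99.78% of cases. Positions, exonic length and overlaps come from GENCODE release 29, and promoters from RefSeq. The members, the lists of other complement genes, regulators and markers, and the comparisons were chosen with earlier results of these data known. The text names the 9 members, BRCA1, and in each comparison up to 3 other complement genes with the largest called rise and 3 with the largest called fall and at least 1 CPM in the higher group, and for each member the 3 genes of most similar course. Alternatives were DESeq2 1.42.0 (size factors, Wald test), no filter, at least 10 counts in every library, the compared conditions alone, a replicate block, an offset for GC content and exonic length, library totals without TMM and each library left out. Some genes that these rules name are not reported here.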

Additional observations from a re-analysis of the deposited data

Results flagged for a closer look

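The response to olaparib at 24 h differed between the cell lines for 2 of the 9 genes, which is near the 19.4% of all genes called for this difference. With a replicate block, 1 of the 9 was called. C1S rose more in OE cells than in EV cells by 0.763 on the log2 scale (edgeR interaction, adjusted p = 0.00282), and all 3 libraries at 24 h were above all 3 at 0 h in both cell lines. For CD46 the difference was 0.470 (adjusted p = 0.045), with log2 changes of -0.21 in EV cells and 0.26 in OE cells that were not called by themselves. CD46 turned to -0.065 with the offset for GC content and exonic length, and the cause was not tested.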

How the results depend on the processing

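The 9 genes kept their direction and call between the cell lines under every alternative in which they were tested. At least 10 counts in every library left 5 of them, all called at the 3 times, and 1 in place of 2 called at 24 h in OE cells. In OE cells at 12 h, 2 genes were called with DESeq2's Wald test, without a filter and with the compared conditions alone, and 3 with the GC and length offset, in place of 1. Of all genes, 669, 556, 286 and 1215 were called under these settings, in place of 423. Between 12 h and 24 h in OE cells, 3 were called with the compared conditions alone, in place of 1, while the calls over all genes went from 303 of 18335 to 3208 of 16332. For the difference of responses at 12 h, 2 were called with DESeq2's Wald test and 1 without a filter, in place of 0 (357 and 644 of all genes, in place of 95). Leaving out 1 library gave 0 to 2 calls for EV cells at 24 h, 1 to 2 for OE cells at 12 h, 2 to 3 for OE cells at 24 h, 0 to 1 between 12 h and 24 h in OE cells, and for the difference of responses 0 to 1 at 12 h and 1 to 2 at 24 h. Over all genes it gave 257 to 468 calls for OE cells at 12 h, 14 to 115 in place of 33 between 12 h and 24 h in EV cells, 69 to 103 in place of 303 between 12 h and 24 h in OE cells, and for the difference of responses at 24 h 2062 to 3469 in place of 3554, with 5502 without the first OE library at 0 h. With the compared conditions alone, 5173 of 14825 genes were called for EV cells at 24 h and 809 of 16283 for OE cells. Correlations of same-numbered deviations ran from -0.373 to 0.246. With deviations from means of 3 libraries, they cannot show whether replicate numbers pair the libraries. The replicate block, with or without the GC and length offset, left 1 of the 9 genes called in place of 2 for the difference of responses at 24 h and changed no other count of calls among the 9. Over all genes the block alone gave 1 call in place of 8 for EV cells at 12 h. With the offset as well, calls over all genes were 83 in place of 8 for EV cells at 12 h, 213 in place of 33 between 12 h and 24 h in EV cells, 1183 in place of 423 for OE cells at 12 h, 3113 in place of 1515 at 24 h, 674 in place of 303 between 12 h and 24 h in OE cells, and 616 in place of 95 for the difference of responses at 12 h. The offset alone gave 153, 206, 1215, 3193, 722 and 676. CD46 turned in sign with that offset, to 0.121 in EV cells at 24 h and -0.065 for the difference of responses, and to 0.122 and -0.066 with the block as well. CD55 in OE cells at 24 h turned to -0.016 without a filter, -0.104 with the offset, with or without the block, and between -0.026 and 0.081 with 1 library left out. The cause was not tested. Library totals without TMM moved the levels by -2.01% to 3.40%.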
